A study of Mus musculus with 6 samples.

Results

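The genes described here are 33 factors of transgene and heterochromatin silencing, followed in livers of mice that carry a mutant allele of Ing5. They were chosen by name, as modifiers known from the MommeD screen and other DNA methylation and heterochromatin factors, and all 33 were found by Ensembl gene ID among the 37991 genes of the count files. Of the 33, 32 had enough counts to be tested, and none of these passed the test between the genotypes over all genes. For 30 of these 32 a change of more than 1.5-fold in either direction fell outside the 95% interval. Uhrf1 and Suv39h2 had at most 14 counts in any library, and the interval of Uhrf1 included a halving. The other factors were expressed in all livers, and Eif3h, Trim28, Mbd2 and Ehmt2 stood highest per length of exon.

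Poly(A) RNA had been sequenced from livers of FVB mice aged 84 days, of which 3 were heterozygous for the MommeD48 allele of Ing5 (Ing5 MommeD48/+, called Het) and 3 were Ing5 +/+ (called WT). Ing5 encodes a PHD-finger subunit of histone acetyltransferase complexes, and MommeD alleles come from a forward genetic screen in mice for modifiers of transgene silencing. The labels name neither the kind of mutation nor the origin of the WT livers, and whether every liver is from a different mouse is not said, so the p-values rest on a spread among 6 samples that could be technical. Whole liver was used, so for any transcript fewer cells of a type and less RNA per cell cannot be told apart.

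Silencing of repeats and transgenes in mammals rests on marks that are copied at each cell division. DNA methyltransferases methylate CpG sites, and UHRF1 brings DNMT1 to newly copied DNA. Histone methyltransferases place methyl groups on lysine 9 of histone H3 (H3K9), and HP1 proteins bind that mark and compact the chromatin. TRIM28 links KRAB zinc finger proteins to the methyltransferase SETDB1, the HUSH complex reads H3K9 methylation over repeats, and ATRX with DAXX places histone H3.3 there. In the adult liver most hepatocytes are not dividing.

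Promoter sequences are shown for the 2 scarcest members, Uhrf1 and Suv39h2, each beside the gene whose product does the paired or the same reaction, Dnmt1 and Suv39h1. Each is the stretch from base 250 to base 51 before a transcript start, 5′ to 3′ on the gene's strand, from the RefSeq promoter table on GRCm38.p6, in a window free of exons of the same gene. Capitals mark letters of the E2F motif, searched as TTTGGCGC, TTTGCCGC, TTTCGCGC or TTTCCCGC on both strands, E2F being the factor family that drives S-phase genes. The count data carry no coordinates, and the files were made on another build (mm9).
Uhrf1 (chr17:56304063-56304262, plus strand): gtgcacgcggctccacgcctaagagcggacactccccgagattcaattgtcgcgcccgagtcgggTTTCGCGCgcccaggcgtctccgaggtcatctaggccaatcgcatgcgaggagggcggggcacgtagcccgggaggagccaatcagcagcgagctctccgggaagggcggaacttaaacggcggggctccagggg
Dnmt1 (chr9:20953030-20953229, minus strand): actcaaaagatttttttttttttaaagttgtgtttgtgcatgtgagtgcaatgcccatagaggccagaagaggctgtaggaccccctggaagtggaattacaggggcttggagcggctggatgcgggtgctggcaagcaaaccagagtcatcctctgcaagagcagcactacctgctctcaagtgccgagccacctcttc
Suv39h2 (chr2:3475037-3475236, minus strand): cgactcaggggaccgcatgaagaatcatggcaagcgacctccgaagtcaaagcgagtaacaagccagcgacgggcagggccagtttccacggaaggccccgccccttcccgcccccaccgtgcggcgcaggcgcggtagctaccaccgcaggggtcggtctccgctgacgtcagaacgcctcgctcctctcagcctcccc
Suv39h1 (chrX:8074811-8075010, minus strand): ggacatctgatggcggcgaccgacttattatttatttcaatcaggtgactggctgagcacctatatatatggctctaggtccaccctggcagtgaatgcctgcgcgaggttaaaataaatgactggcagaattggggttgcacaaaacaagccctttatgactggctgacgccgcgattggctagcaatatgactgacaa
The Uhrf1 window held 24 CpG sites and 1 match to the E2F letters, beginning at base -185 relative to the start. The Suv39h2 window held 21 CpG sites and no match, and the Dnmt1 and Suv39h1 windows held 3 and 8 CpG sites and no match. Of 25 members with such a window, the richest in CpG being taken for each gene, Uhrf1 was the 1 with the letters (4.0%), against 2.75% of the 7847 tested genes with a window. These windows had a median of 16 CpG sites over the members and 11 over the tested genes. Among the 4 shown, the windows of the scarcest transcripts were the richest in CpG. That order did not hold over the 25 members. The more abundant Pphln1 (34), Dnmt3a (32) and Ehmt2 (31) had more CpG sites than these, and the abundant Atrx (5) had fewer.

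The libraries held 19840541 to 22041117 gene counts, and the 33 members together took 0.0978% to 0.106% of them in Het livers and 0.0964% to 0.103% in WT livers. Levels are in CPM, counts per 1000000 of the normalised library size. The level that 0 counts would still allow, taken as 3 counts, was 0.136 to 0.154 CPM, a floor that covers counting error only. The mutated gene itself, Ing5 (ENSMUSG00000026283, chromosome 1), had 193, 217 and 180 counts in the Het livers, against 182, 228 and 191 counts in the WT livers. Its values overlapped between the genotypes, with a log2 fold change of -0.047 of Het over WT (SE 0.11, adjusted p = 0.9998 by edgeR quasi-likelihood and Benjamini-Hochberg). By an exact permutation test, two-sided, p was 0.8, and 3 livers against 3 cannot give less than 0.1. The transcript level therefore does not tell the genotypes apart, and the labels are not checked by it. Without WT replicate 2 the log2 fold change of Ing5 was 0.0077.

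In the comparison of Het with WT livers, 0 of 32 tested members passed an adjusted p of 0.05 (edgeR quasi-likelihood, Benjamini-Hochberg over the 12631 genes tested), and 0% of all genes passed. The adjusted p was 0.9998 for each of the 32. At an unadjusted p under 0.05 there were also 0 members, beside 4.33% of all genes, and the smallest unadjusted p was 0.077, that of Mbd2. DESeq2 and limma-voom likewise passed 0 members, with 0.103% and 0% of all genes passing, and at an unadjusted p under 0.05 they also had 0 members, beside 3.22% and 4.4% of all genes. Both groups' values were fully apart for 1 tested member, Smarca5 (3.12%), and for the untested Suv39h2, beside 8.99% of all genes. Lower mean values in Het livers were found for 19 members and higher ones for 13, as for 49.7% and 50.3% of all genes, and the median log2 fold change was -0.017, beside 0.00088 over all genes. The count of 0 over all genes became 17 without WT replicate 3 and 10 without Het replicate 1. Among the members it was 0 without any of the 6 libraries. With 1 library left out, Rlf, Mbd2 and Mbd1 each came under an unadjusted p of 0.05 in 1 fit.

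**Figure D1:**
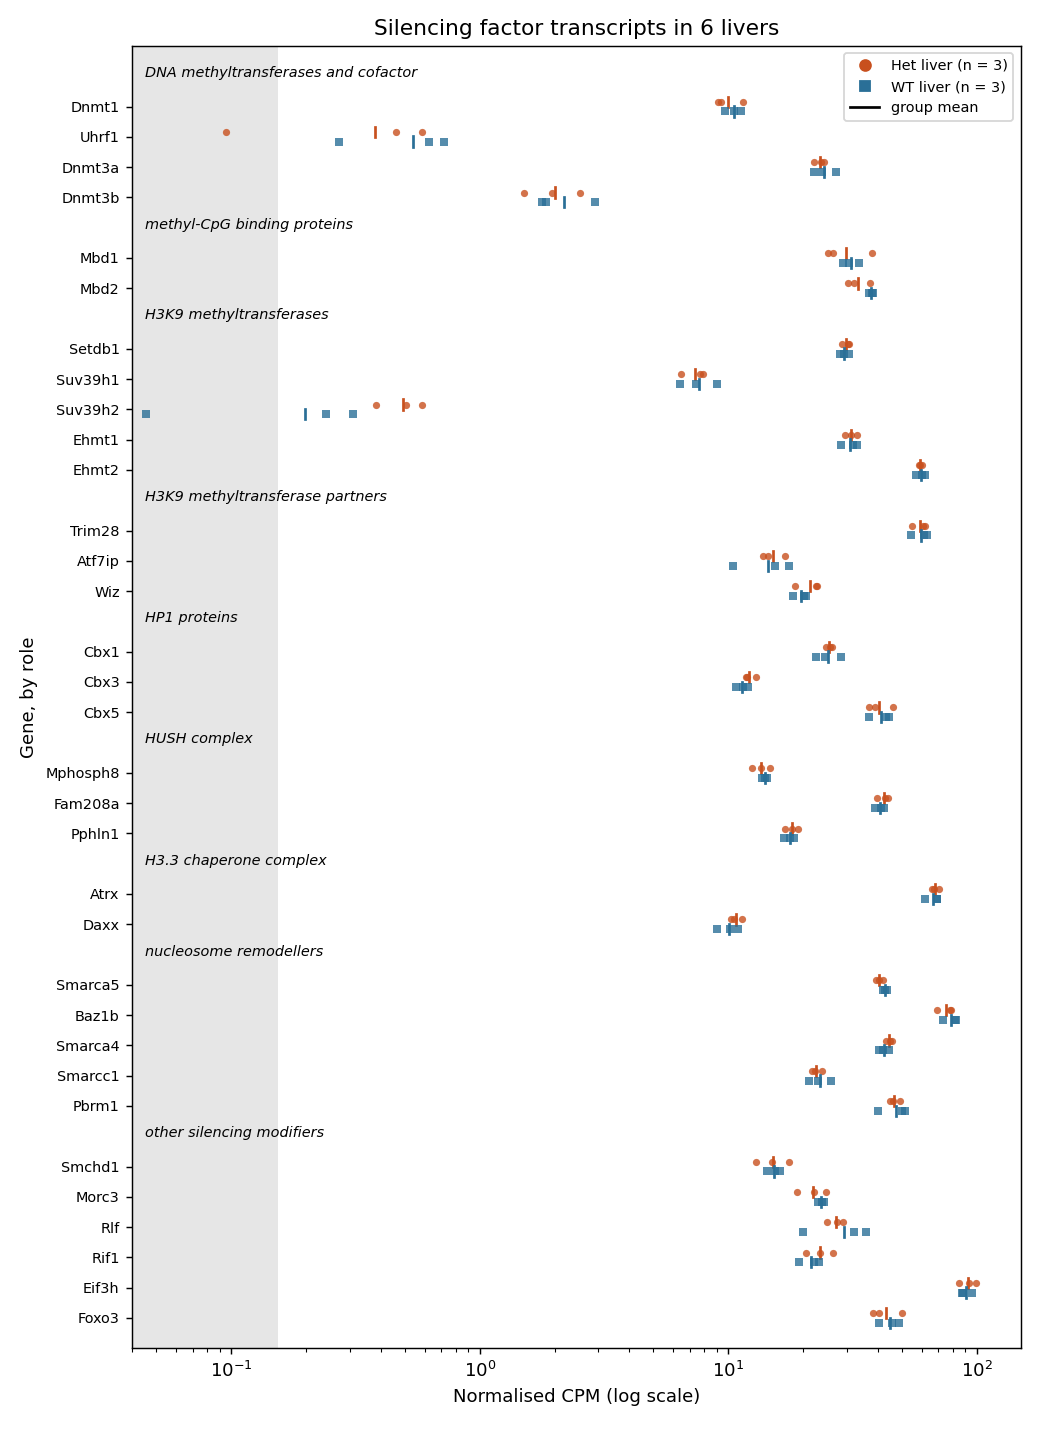
Normalised CPM (log scale) of each of the 33 members, 1 point per liver, with Het livers (circles) above WT livers (squares) and a tick at each group's mean. The grey band ends at the highest floor that a count of 0 allows (0.154 CPM). For most genes the 3 circles and 3 squares cover the same stretch, and only Uhrf1 and Suv39h2 reach into the band.

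The summed level of the 33 members was 1000.1, 983 and 1034 CPM in the Het livers, against 1032, 1028 and 983 CPM in the WT livers. The range over all livers was thus no wider than from 983 to 1034 CPM, and the genotypes overlapped. For 20 of 32 members the 95% interval lay within a 1.25-fold change (62.5%, beside 36.7% of all genes), for 30 within 1.5-fold (93.8%, beside 71.1%) and for 31 within 2-fold (96.9%, beside 90% of all genes). Members other than Uhrf1 had an absolute log2 fold change under 0.2, that is 31 of 32, which also holds for 77.7% of all genes.

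**Figure D2:**
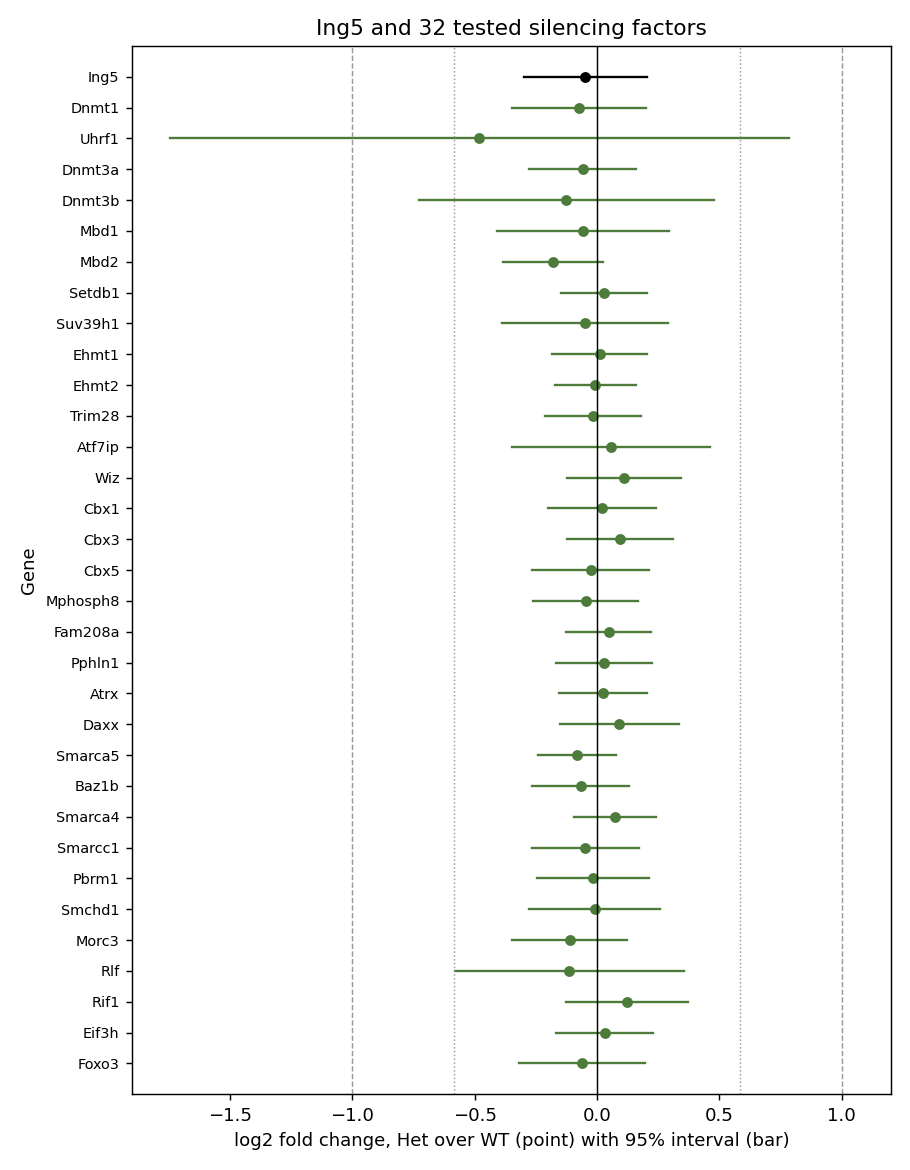
Log2 fold change of Het over WT with its 95% interval for Ing5 (black) and the 32 tested members (green), with dotted lines at 1.5-fold and dashed lines at 2-fold. Every interval spans 0; those of Uhrf1 and Dnmt3b cross the lower dotted line, and that of Uhrf1 also crosses the upper dotted and the lower dashed line.

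Among the DNA methylation genes, the maintenance methyltransferase and both de novo enzymes had values that overlapped between the genotypes, and the cofactor Uhrf1 was close to the floor. Dnmt1, the maintenance methyltransferase (ENSMUSG00000004099, chromosome 9), had 9.13, 11.5 and 9.37 CPM in the Het livers, against 11.3, 10.6 and 9.71 CPM in the WT livers. The highest liver was a Het one and the lowest was too, so the groups overlapped, with a log2 fold change of -0.073 (95% interval -0.35 to 0.20, SE 0.12). Uhrf1, which recruits DNMT1 to hemimethylated DNA after replication (ENSMUSG00000001228, chromosome 17), had 2, 10 and 12 counts in the Het livers, against 13, 6 and 14 counts in the WT livers. Het replicate 1, with 2 counts, lay under the floor, and the other 5 livers overlapped. Its log2 fold change of -0.48 (95% interval -1.75 to 0.79, SE 0.56) does not exclude a halving, and leaving out Het replicate 3 made it -0.91, leaving out Het replicate 1 -0.031. Markers of dividing cells had lower means in Het livers for 11 of 11 tested, beside 49.7% of all genes, the median log2 fold change being -0.40. Of these 0 passed the test and 1 had an unadjusted p under 0.05, beside 4.33% of all genes. The 12 listed markers, Pcna the most abundant, summed to 39.4, 45.4 and 47.0 CPM in the Het livers, against 51.9, 41.3 and 61.6 CPM in the WT livers, with Het replicate 1 lowest as for Uhrf1. The most abundant of them changed less than the median, Pcna by -0.010 (SE 0.087) and Tyms by -0.17 (SE 0.14) on the log2 scale. The part of cell division in the Uhrf1 values was not tested.

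Dnmt3a, the de novo methyltransferase of most adult tissues (ENSMUSG00000020661, chromosome 12), had 23.6, 22.1 and 24.3 CPM in the Het livers, against 22.04, 27.1 and 23.7 CPM in the WT livers. WT replicate 2 was the highest, and the remaining 5 livers lay between 22.04 and 24.3 CPM. This gave a log2 fold change of -0.059 (95% interval -0.28 to 0.16, SE 0.097). Dnmt3b, the de novo methyltransferase of early embryos and pericentromeric repeats (ENSMUSG00000027478, chromosome 2), had 1.96, 2.53 and 1.51 CPM in the Het livers, against 1.78, 2.90 and 1.85 CPM in the WT livers. Replicate 2 was highest in each genotype and the groups overlapped, with a log2 fold change of -0.13 (95% interval -0.73 to 0.48, SE 0.27). Without WT replicate 2 its sign changed, as did that of Dnmt3a, and Dnmt3b also changed sign without Het replicate 3. Per kb of exon Dnmt3a stood above Dnmt3b in every liver, by a ratio of 2.68 to 4.94 in Het livers and 2.87 to 3.94 in WT livers. By the same measure Dnmt1 and Dnmt3a were alike, at 1.36 ± 0.177 in Het livers and 1.43 ± 0.105 in WT livers for Dnmt1 and 1.40 ± 0.0694 in Het livers and 1.46 ± 0.156 in WT livers for Dnmt3a (CPM per kb of exon, mean ± SD, n = 3 each). That likeness rests on joined exon lengths of 7377 bases for Dnmt1 and 16642 for Dnmt3a, and in CPM Dnmt3a was the higher in every liver.

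The methyl-CpG binding proteins, which read methylated DNA, held the member with the smallest p. Mbd2, a subunit of the NuRD repressor complex (ENSMUSG00000024513, chromosome 18), had 37.3, 32.1 and 30.3 CPM in the Het livers, against 38.2, 37.0 and 37.8 CPM in the WT livers. The 3 WT livers lay close together, Het replicates 2 and 3 lay under them and Het replicate 1 among them. Its log2 fold change was -0.18 (95% interval -0.38 to 0.024, SE 0.091), with an unadjusted p of 0.077 and an adjusted p of 0.9998 (edgeR quasi-likelihood, Benjamini-Hochberg), and it was lower in Het livers whichever library was left out (-0.27 to -0.12). Without Het replicate 1 the edgeR unadjusted p of Mbd2 was 0.0114 and the adjusted p 0.448, which over its alternatives ran up to 0.99998. Mbd1, which binds methylated DNA and works with SETDB1 (ENSMUSG00000024561, chromosome 18), had 26.4, 25.1 and 38.0 CPM in the Het livers, against 33.6, 30.5 and 29.0 CPM in the WT livers. Het replicate 3 was the highest of all livers and the other Het livers the lowest, so the WT values lay inside the Het range. Its log2 fold change of -0.057 (SE 0.15) became -0.27 without Het replicate 3 (edgeR quasi-likelihood, unadjusted p 0.0304 and adjusted p 0.99998, from 0.886 over its alternatives) and 0.054 without Het replicate 2.

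Of the H3K9 methyltransferases, Setdb1, Ehmt1 and Ehmt2 had SEs below the median of the members, Suv39h1 had an SE above it and Suv39h2 was not tested. Setdb1, the H3K9 methylating enzyme of KRAB zinc finger silencing (ENSMUSG00000015697, chromosome 3), had 30.4, 28.7 and 30.5 CPM in the Het livers, against 28.1, 29.2 and 30.6 CPM in the WT livers. All 6 livers fell between 28.1 and 30.6 CPM, with a log2 fold change of 0.028 (95% interval -0.15 to 0.20, SE 0.078). Ehmt2, which encodes G9a, the main H3K9 dimethyltransferase of genes outside heterochromatin (ENSMUSG00000013787, chromosome 17), had 59.3, 58.4 and 60.4 CPM in the Het livers, against 60.0, 56.9 and 62.0 CPM in the WT livers. Its log2 fold change was -0.0066 (95% interval -0.17 to 0.16, SE 0.074), and the WT livers enclosed the Het ones. Ehmt1, which encodes the GLP partner of G9a (ENSMUSG00000036893, chromosome 2), had 32.9, 29.6 and 31.2 CPM in the Het livers, against 31.7, 32.8 and 28.5 CPM in the WT livers, also overlapping, with a log2 fold change of 0.011 (95% interval -0.18 to 0.20, SE 0.086).

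Suv39h1 and Suv39h2 encode the pair of enzymes that trimethylate H3K9 at pericentromeric heterochromatin. Suv39h1 (ENSMUSG00000039231, X chromosome) had 6.45, 7.73 and 7.90 CPM in the Het livers, against 9.001, 6.40 and 7.45 CPM in the WT livers. WT replicate 1 was highest, WT replicate 2 lowest and the Het livers lay between them, with a log2 fold change of -0.048 (95% interval -0.39 to 0.29, SE 0.15). Suv39h2 (ENSMUSG00000026646, chromosome 2) had 8, 11 and 12 counts in the Het livers, against 5, 1 and 6 counts in the WT livers. Every Het liver was above every WT liver, although with 31 counts in all Het libraries and 12 in all WT libraries, and it did not pass the filter on low counts. Where all genes were tested without that filter, its log2 fold change was 1.31 with an unadjusted p of 0.0226 and an adjusted p of 0.928 (edgeR quasi-likelihood, Benjamini-Hochberg). By an exact permutation test, two-sided, p was 0.1, the least such groups can give. With 1 library left out it passed the filter in 4 fits, only through Het libraries with at least 10 counts, so those fits are no further check of its direction. One of them, without WT replicate 2 and its 1 count, gave a log2 fold change of 0.83. Per kb of exon, Suv39h1 exceeded Suv39h2 in every liver, by a ratio of 11.3 to 14.1 in Het livers and 20.2 to 118 in WT livers. Ratios over so few counts are coarse.

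**Figure D3:**
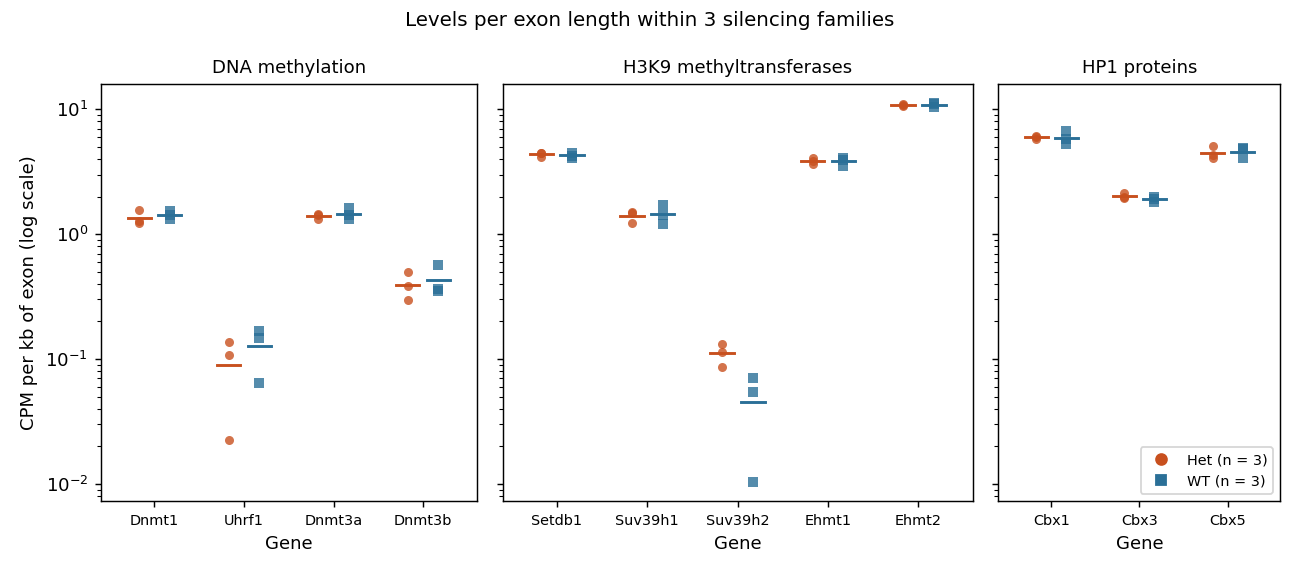
CPM per kb of exon (log scale) for the DNA methyltransferases with their cofactor Uhrf1, the H3K9 methyltransferases and the HP1 proteins, 1 point per liver and a line at each group's mean, Het (circles) left of WT (squares). Ehmt2 is the highest of the methyltransferases shown, and Uhrf1 and Suv39h2 are the lowest of all genes shown, in both genotypes.

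The partners of these enzymes had overlapping values in the genotypes as well. Trim28, the corepressor that KRAB zinc finger proteins bind (ENSMUSG00000005566, chromosome 7), had 60.7, 61.7 and 54.7 CPM in the Het livers, against 54.6, 63.2 and 61.3 CPM in the WT livers. Its log2 fold change of -0.017 (95% interval -0.21 to 0.18, SE 0.088) changed sign without Het replicate 3, WT replicate 2 or WT replicate 3. Atf7ip, which stabilises SETDB1 in the nucleus (ENSMUSG00000030213, chromosome 6), had 14.4, 16.97 and 13.9 CPM in the Het livers, against 15.4, 17.6 and 10.5 CPM in the WT livers. WT livers held both the highest and the lowest value, and the log2 fold change was 0.057 (95% interval -0.35 to 0.46, SE 0.18). Wiz, a zinc finger partner of G9a and GLP (ENSMUSG00000024050, chromosome 17), had 18.5, 22.7 and 22.6 CPM in the Het livers, against 20.6, 20.2 and 18.2 CPM in the WT livers. Het replicates 2 and 3 were the highest and the genotypes overlapped through Het replicate 1, with a log2 fold change of 0.11 (95% interval -0.12 to 0.34, SE 0.10).

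The 3 HP1 proteins, which bind methylated H3K9, were all expressed. Cbx1, which encodes HP1 beta (ENSMUSG00000018666, chromosome 11), had 26.1, 24.7 and 25.6 CPM in the Het livers, against 24.5, 22.5 and 28.4 CPM in the WT livers, with a log2 fold change of 0.021 (95% interval -0.20 to 0.24, SE 0.098). Cbx5, which encodes HP1 alpha (ENSMUSG00000009575, chromosome 15), had 39.0, 36.8 and 45.9 CPM in the Het livers, against 44.2, 36.7 and 43.1 CPM in the WT livers. Replicate 2 was the lowest of its genotype for both genes, and the log2 fold change of Cbx5 was -0.026 (95% interval -0.27 to 0.21, SE 0.11). Cbx3, which encodes HP1 gamma (ENSMUSG00000029836, chromosome 6), had 11.8, 11.9 and 12.9 CPM in the Het livers, against 11.5, 10.8 and 12.0 CPM in the WT livers. The Het mean was higher but WT replicate 3 exceeded both of the lower Het livers, with a log2 fold change of 0.093 (95% interval -0.12 to 0.31, SE 0.097). Per kb of exon the order was Cbx1, Cbx5 and Cbx3 in each of the 6 livers: Cbx1 had 5.96 ± 0.165 in Het livers and 5.88 ± 0.701 in WT livers, Cbx5 4.50 ± 0.527 in Het livers and 4.59 ± 0.448 in WT livers and Cbx3 2.03 ± 0.103 in Het livers and 1.90 ± 0.103 in WT livers (mean ± SD, n = 3 each). In CPM Cbx5 was the highest in every liver, with a joined exon length of 9006 bases, against 4273 for Cbx1 and 5992 for Cbx3. Reads of Cbx3 can be shared with its processed pseudogenes, so its level is uncertain, and 5 Cbx3 pseudogenes and the Smarca5 pseudogene together had 4 counts over the 6 libraries.

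The 3 HUSH subunits are a scaffold, a reader of the mark and an RNA-associated protein. Fam208a, which encodes the scaffold TASOR (ENSMUSG00000040651, chromosome 14), had 39.7, 42.8 and 44.0 CPM in the Het livers, against 41.1, 42.2 and 39.0 CPM in the WT livers. Mphosph8, whose chromodomain reads H3K9 methylation (ENSMUSG00000079184, chromosome 14), had 14.7, 12.5 and 13.6 CPM in the Het livers, against 14.1, 13.7 and 14.3 CPM in the WT livers. Pphln1, which encodes periphilin (ENSMUSG00000036167, chromosome 15), had 18.1, 16.9 and 19.0 CPM in the Het livers, against 16.8, 17.8 and 18.4 CPM in the WT livers. The genotypes overlapped for all 3 subunits, whose log2 fold changes were 0.049 (95% interval -0.12 to 0.22, SE 0.078) for Fam208a, -0.047 (95% interval -0.26 to 0.17, SE 0.095) for Mphosph8 and 0.028 (95% interval -0.17 to 0.22, SE 0.087) for Pphln1. Per kb of exon Fam208a was the lowest subunit in every liver and the other subunits overlapped, at 3.10 ± 0.165 in Het livers and 2.99 ± 0.119 in WT livers for Fam208a, 3.79 ± 0.315 in Het livers and 3.91 ± 0.0889 in WT livers for Mphosph8 and 3.96 ± 0.237 in Het livers and 3.89 ± 0.178 in WT livers for Pphln1. In CPM Fam208a was the highest in every liver, with a joined exon length of 13627 bases, against 3586 for Mphosph8 and 4545 for Pphln1.

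Atrx and Daxx encode the remodeller and the chaperone that deposit histone H3.3 at repeats and telomeres. Atrx (ENSMUSG00000031229, X chromosome) had 67.1, 66.0 and 70.2 CPM in the Het livers, against 69.0, 69.1 and 61.9 CPM in the WT livers. Daxx (ENSMUSG00000002307, chromosome 17) had 10.3, 11.3 and 10.6 CPM in the Het livers, against 10.97, 10.2 and 9.05 CPM in the WT livers. For both genes WT replicate 3 was the lowest liver and the other 5 overlapped. The log2 fold changes were 0.024 (95% interval -0.15 to 0.20, SE 0.080) for Atrx and 0.092 (95% interval -0.15 to 0.34, SE 0.11) for Daxx. Per kb of exon every Het value of Daxx was above every Het value of Atrx and the WT values overlapped, at 3.11 ± 0.102 in Het livers and 3.06 ± 0.189 in WT livers for Atrx and 3.40 ± 0.169 in Het livers and 3.19 ± 0.307 in WT livers for Daxx. That order rests on joined exon lengths of 21757 bases for Atrx and 3151 for Daxx, and in CPM Atrx was the higher in every liver.

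Of the 5 nucleosome remodellers among the members, Smarca5 alone had genotypes that did not overlap. Smarca5, the ISWI ATPase (ENSMUSG00000031715, chromosome 8), had 39.1, 40.5 and 41.8 CPM in the Het livers, against 43.7, 42.8 and 42.0 CPM in the WT livers. The highest Het liver and the lowest WT liver were only 41.8 and 42.0 CPM, and the log2 fold change was -0.082 (95% interval -0.24 to 0.079, SE 0.072), with an unadjusted p of 0.283 (edgeR quasi-likelihood, adjusted p = 0.9998). Baz1b, which encodes the WSTF partner of that ATPase (ENSMUSG00000002748, chromosome 5), had 78.6, 69.5 and 78.4 CPM in the Het livers, against 81.9, 82.3 and 73.0 CPM in the WT livers, with a log2 fold change of -0.067 (95% interval -0.26 to 0.13, SE 0.088). Both mean values were lower in Het livers whichever library was left out, at -0.11 to -0.058 for Smarca5 and -0.12 to -0.010 for Baz1b on the log2 scale, and neither passed the test.

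Smarca4, the BRG1 ATPase of SWI/SNF complexes (ENSMUSG00000032187, chromosome 9), had 43.0, 45.4 and 44.8 CPM in the Het livers, against 40.4, 44.2 and 42.0 CPM in the WT livers, with a log2 fold change of 0.074 (95% interval -0.094 to 0.24, SE 0.075) and overlapping groups. Smarcc1, a core scaffold subunit of the same complexes (ENSMUSG00000032481, chromosome 9), had 21.7, 22.3 and 23.9 CPM in the Het livers, against 23.0, 26.0 and 21.1 CPM in the WT livers. The WT livers enclosed the Het livers, with a log2 fold change of -0.047 (95% interval -0.26 to 0.17, SE 0.097). Pbrm1, the bromodomain subunit of the PBAF form (ENSMUSG00000042323, chromosome 14), had 44.7, 45.9 and 49.1 CPM in the Het livers, against 49.9, 51.3 and 40.2 CPM in the WT livers. WT replicate 3 was the lowest and the other WT livers the highest, with a log2 fold change of -0.017 (95% interval -0.25 to 0.21, SE 0.10).

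The remaining modifiers included the most abundant and some of the most variable members. Eif3h, a translation initiation subunit (ENSMUSG00000022312, chromosome 15), had 99.6, 93.0 and 84.6 CPM in the Het livers, against 88.4, 87.5 and 95.3 CPM in the WT livers. It was the highest member per kb of exon, at 57.3 ± 4.66 in Het livers and 56.1 ± 2.65 in WT livers, and its log2 fold change was 0.032 (95% interval -0.17 to 0.23, SE 0.088). Smchd1, a structural maintenance protein of the inactive X chromosome and of imprinted and protocadherin clusters (ENSMUSG00000024054, chromosome 17), had 12.95, 15.0 and 17.6 CPM in the Het livers, against 15.4, 16.2 and 14.3 CPM in the WT livers. The Het livers spanned more than the WT livers, from Het replicate 1 to Het replicate 3, with a log2 fold change of -0.010 (95% interval -0.28 to 0.26, SE 0.12). Morc3, a nuclear body ATPase that binds H3K4 methylation and represses retroviral repeats (ENSMUSG00000039456, chromosome 16), had 18.8, 22.2 and 24.7 CPM in the Het livers, against 23.8, 24.2 and 23.0 CPM in the WT livers, and Het replicate 1 was again the lowest. Its log2 fold change was -0.11 (95% interval -0.35 to 0.12, SE 0.10).

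Foxo3, a forkhead transcription factor of stress and nutrient signalling (ENSMUSG00000048756, chromosome 10), had 40.6, 38.2 and 50.2 CPM in the Het livers, against 48.6, 40.5 and 45.5 CPM in the WT livers, with a log2 fold change of -0.061 (95% interval -0.32 to 0.20, SE 0.12). Het replicate 3 was the highest liver and Het replicate 2 the lowest, so the WT values lay inside the Het range. Rif1, which sets replication timing and end protection (ENSMUSG00000036202, chromosome 2), had 23.4, 20.7 and 26.3 CPM in the Het livers, against 22.04, 23.2 and 19.3 CPM in the WT livers, with a log2 fold change of 0.12 (95% interval -0.13 to 0.37, SE 0.11). Its mean was higher in Het livers whichever library was left out (0.034 to 0.21), without passing the test.

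Rlf, a zinc finger protein needed for normal silencing and methylation in mice (ENSMUSG00000049878, chromosome 4), was the abundant member with the widest spread within a genotype. It had 28.9, 27.4 and 25.0 CPM in the Het livers, against 35.8, 32.03 and 19.99 CPM in the WT livers. WT replicates 1 and 2 lay above all Het livers and WT replicate 3 below them, so the coefficient of variation was 7.24% in Het livers and 28.2% in WT livers. The log2 fold change was -0.11 (95% interval -0.58 to 0.36, SE 0.20) with all libraries. Without WT replicate 3 it was -0.32, with an unadjusted p of 0.00602 and an adjusted p of 0.259 (edgeR quasi-likelihood, Benjamini-Hochberg), and without WT replicate 1 it was 0.053. Over its alternatives the adjusted p ran up to 0.99998. Across the 9 acute-phase genes measured beside it, which liver induces in inflammation, the summed level was 12413, 8189 and 7525 CPM in the Het livers, against 14599.5, 26914 and 7216 CPM in the WT livers. WT replicates 1 and 2 were highest and WT replicate 3 lowest in that sum as in Rlf, with the Het livers in the same order between them. The order of the highest livers differed, WT replicate 2 leading in the sum and WT replicate 1 in Rlf. All 9 had lower means in Het livers (median log2 fold change -1.34), beside 49.7% of all genes, and 0 passed the test. The part of the acute-phase state in the Rlf values was not tested.

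Within a genotype the median coefficient of variation over the 32 tested members was 7.07% in Het livers and 7.35% in WT livers. It was above 20% in Het livers for Uhrf1 (66.9%), Dnmt3b (25.5%) and Mbd1 (23.8%). In WT livers it was above 20% for Uhrf1 (43.7%), Dnmt3b (28.9%), Rlf and Atf7ip (25.0%). Het replicate 3 was the highest liver for 10 of the 32 (31.2%, beside 14% of all genes), and WT replicate 3 was the lowest for 10 (31.2%, beside 21.6% of all genes). Log2 fold changes had a median SE of 0.098 over the members and 0.12 over all genes. Most members, 29 of 33, had a mean of at least 10 CPM, where the SE of other genes is small as well.

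**Figure D4:**
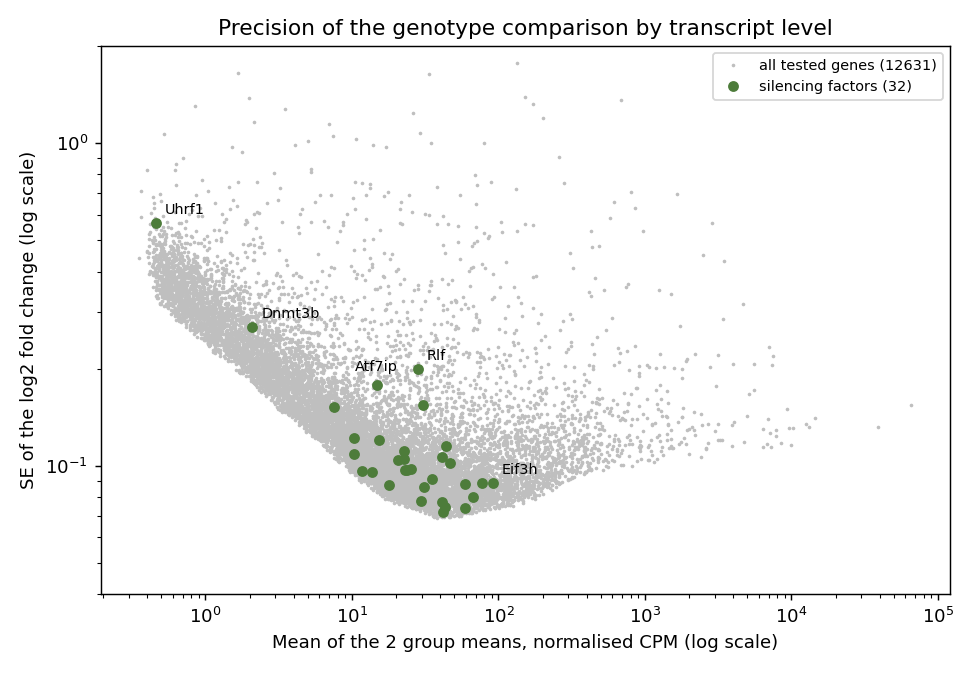
SE of the log2 fold change against mean normalised CPM, both on log scales, for the 12631 tested genes (grey) and the 32 tested members (green). Uhrf1 and Dnmt3b stand at the left with a high SE, Rlf and Atf7ip stand above members of like level, and most members lie near the lowest SE in the plot.

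Per kb of exon the members covered a wide range, led by Eif3h and followed by Trim28 (14.3 CPM per kb as the mean of 6 livers), Mbd2 (11.03) and Ehmt2 (10.8). Mbd2 and Ehmt2 overlapped in Het livers, while in WT livers every Mbd2 value was above every Ehmt2 value, Mbd2 being 10.3 ± 1.14 in Het livers and 11.7 ± 0.197 in WT livers and Ehmt2 10.8 ± 0.180 in Het livers and 10.9 ± 0.476 in WT livers. The middle of the order, from Smarca4 (6.69) down to Cbx3 (1.97), ran through 21 genes in small steps. The low end was formed by Dnmt3a, Suv39h1, Dnmt1, Smchd1, Atf7ip, Dnmt3b, Uhrf1 and Suv39h2, from 1.43 to 0.0782 CPM per kb. The exon lengths join all annotated exons of a gene, so they can exceed the length of any 1 transcript, and they come from another build. They were longest for Atrx (21757 bases), Atf7ip (20726), Smchd1 (19982) and Dnmt3a (16642), 3 of which stand at the low end. In CPM, Smchd1 (15.2) and Atf7ip (14.8) stood above Cbx3 (11.8). The order between genes is therefore less certain than the comparison between genotypes.

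Other genes of the same pathways were counted from lists of known factors, and 0 of their members passed the test over all genes (edgeR quasi-likelihood, Benjamini-Hochberg). Over all genes 50.3% had a higher mean in Het livers and 4.33% an unadjusted p under 0.05. Of 13 tested other DNA methylation genes 10 had higher means in the Het group, the median log2 fold change being 0.045, and there were 0 genes with an unadjusted p under 0.05. The most abundant were the deubiquitinase gene Usp7, with 81.5 ± 6.81 CPM in Het livers and 78.5 ± 6.74 CPM in WT livers, and Mbd3, a NuRD subunit, with 42.1 ± 2.91 CPM in Het livers and 40.8 ± 2.61 CPM in WT livers. Mbd4, a glycosylase gene of DNA repair, had the smallest p, with 3.57 ± 0.457 CPM in Het livers and 2.93 ± 0.268 CPM in WT livers (log2 fold change 0.29, SE 0.17). Of 21 tested other SWI/SNF and ISWI subunits 10 had higher means, with a median of -0.013, and 0 had an unadjusted p under 0.05. Smarca2, the BRM ATPase, had 135 ± 3.53 CPM in Het livers and 139.8 ± 8.10 CPM in WT livers, Smarcc2 had 121 ± 4.39 CPM in Het livers and 114 ± 9.17 CPM in WT livers, and Pole3, a histone-fold subunit, had 17.1 ± 0.607 CPM in Het livers and 19.3 ± 0.897 CPM in WT livers, all SDs being over 3 livers. The 3 Het values of Pole3 lay under the 3 WT values (log2 fold change -0.17, SE 0.083), where 8.99% of all genes did not overlap. Its unadjusted p was 0.063 and its adjusted p 0.9998 (edgeR quasi-likelihood, Benjamini-Hochberg).

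Of 13 tested other genes of H3K9 and H4K20 methylation 11 had higher means in the Het group, the median log2 fold change being 0.10, beside 50.3% of all genes with a higher mean. An unadjusted p under 0.05 was found for 2 of the 13, beside 4.33% of all genes. These were Kmt5b and Kmt5c, the H4K20 methyltransferase genes, of which Kmt5c is named because its value was seen. Kmt5b had 34.5, 38.9 and 39.9 CPM in the Het livers, against 33.02, 32.2 and 30.4 CPM in the WT livers. Kmt5c had 13.6, 13.3 and 13.6 CPM in the Het livers, against 9.72, 11.3 and 12.3 CPM in the WT livers. For both every Het liver was above every WT liver, where 8.99% of all genes did not overlap, with log2 fold changes of 0.24 (SE 0.084) for Kmt5b and 0.28 (SE 0.11) for Kmt5c, but neither passed (adjusted p = 0.9998, edgeR quasi-likelihood and Benjamini-Hochberg). Prdm2, also called RIZ, was the most abundant of this list, with 39.1 ± 1.25 CPM in Het livers and 33.5 ± 5.62 CPM in WT livers.

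Of 14 tested other heterochromatin genes 9 had lower means in Het livers, with a median of -0.052, and 0 had an unadjusted p under 0.05. The most abundant were Chd4, the NuRD ATPase, with 94.8 ± 2.16 CPM in Het livers and 98.0 ± 9.73 CPM in WT livers, and H2afy, which encodes macroH2A1, with 56.9 ± 1.52 CPM in Het livers and 61.0 ± 2.31 CPM in WT livers. All Het values of H2afy lay under all WT values (log2 fold change -0.10, SE 0.074), where 8.99% of all genes did not overlap. Lmnb2, a nuclear lamin gene, had the smallest p, with 8.09 ± 1.19 CPM in Het livers and 9.67 ± 1.10 CPM in WT livers (log2 fold change -0.26, SE 0.14). Of 16 tested Polycomb genes 11 had higher means, with a median of 0.045 and 0 with an unadjusted p under 0.05, and the most abundant, Suz12 and Bmi1, had 32.6 ± 2.28 CPM in Het livers and 31.5 ± 2.20 CPM in WT livers for Suz12 and 28.5 ± 1.21 CPM in Het livers and 26.3 ± 1.84 CPM in WT livers for Bmi1.

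Genes that silencing factors are known to keep off were at or near 0 in both genotypes, Brdt excepted. Of 20 germline genes silenced by DNA methylation 11 had no count in any library, and Brdt, a testis bromodomain gene, was the 1 that could be tested, with 2.21 ± 0.334 CPM in Het livers and 2.05 ± 0.140 CPM in WT livers (log2 fold change 0.11, SE 0.20). The other 19 together had 5, 4 and 12 counts in the Het livers, against 2, 5 and 11 counts in the WT livers. Clustered protocadherins, neuronal adhesion genes that SMCHD1 is known to silence, had 43, 51 and 49 counts over 21 genes in the Het livers, against 44, 33 and 41 counts in the WT livers. No protocadherin of the list had enough counts to be tested. These sums overlap between the genotypes for the germline genes, and for the protocadherins through WT replicate 1. In CPM, which allows for library size, the protocadherin sum of WT replicate 3 also lay above that of Het replicate 1. Het replicates 2 and 3 stayed above all WT livers, and WT replicate 2 was the lowest.

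The livers were hepatocyte tissue by their markers, 8 hepatocyte genes with Alb in the lead summing to 95236 to 114863 CPM in Het livers and 91625 to 106805 CPM in WT livers. No marker of any list passed the test. The summed markers overlapped between the genotypes for Kupffer cells, at 121 to 211 CPM in Het livers and 105 to 194 CPM in WT livers, and for endothelial cells, at 91.8 to 113 CPM in Het livers and 90.7 to 119 CPM in WT livers. Lymphocyte and other leukocyte markers were scarce, at 6.0 to 10.6 CPM in Het livers and 6.58 to 8.94 CPM in WT livers. Pancreatic acinar markers summed to 45.6 to 60.7 CPM in Het livers and 38.8 to 57.3 CPM in WT livers. Nearly all of that sum was Cela1, with 45.3, 50.5 and 60.5 CPM in the Het livers, against 47.2, 38.2 and 56.9 CPM in the WT livers. Of the 7 listed acinar markers, 4 had no count in any library and 1 was tested, so the sum does not speak for acinar cells.

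Stellate cell, erythroid and cholangiocyte markers each held 1 gene with an unadjusted p under 0.05, beside 4.33% of all genes. Over all genes 50.3% had a higher and 49.7% a lower mean in Het livers, and 8.99% had genotypes that did not overlap. Stellate cell markers summed to 198 to 239.7 CPM in Het livers and 142 to 217 CPM in WT livers, which overlapped, and 5 of 6 had higher means in Het livers (median log2 fold change 0.16). Of its most abundant genes, Dcn, which encodes the matrix protein decorin, had 115 ± 20.3 CPM in Het livers and 96.3 ± 24.5 CPM in WT livers. Reln, which encodes reelin, did not overlap, with 47.6, 57.8 and 53.9 CPM in the Het livers, against 43.0, 32.2 and 46.3 CPM in the WT livers (log2 fold change 0.39, SE 0.14, edgeR quasi-likelihood unadjusted p 0.0176, adjusted p 0.9998). Erythroid markers, of which 4 of 6 were found, summed to 58.0 to 105 CPM in Het livers and 92.7 to 126 CPM in WT livers, which overlapped, and 3 of 3 tested had lower means in Het livers (median log2 fold change -0.49). The most abundant were the haemoglobin gene Hba-a1, whose reads can be shared with Hba-a2, with 51.1 ± 17.7 CPM in Het livers and 71.9 ± 18.8 CPM in WT livers, and Alas2, a haem synthesis gene, with 30.2 ± 6.60 CPM in Het livers and 33.3 ± 6.01 CPM in WT livers. The unadjusted p under 0.05 was that of the scarcer Hba-a2 (0.0389, edgeR quasi-likelihood, adjusted p 0.9998). Hba-a2 had 22, 18 and 28 counts in the Het livers, against 47, 37 and 25 counts in the WT livers. The 5 cholangiocyte markers of bile duct cells had sums that did not overlap, at 26.9 to 29.1 CPM in Het livers and 29.5 to 33.4 CPM in WT livers. That sum was carried by Spp1, which encodes osteopontin, with 23.0, 23.8 and 24.9 CPM in the Het livers, against 28.1, 25.1 and 29.7 CPM in the WT livers (log2 fold change -0.21, SE 0.089), while 3 of the 5 had higher means in Het livers and the median log2 fold change was 0.14. Sox9, a transcription factor and the next most abundant, had 1.86 ± 0.497 CPM in Het livers and 1.97 ± 0.422 CPM in WT livers. The part of these cell types in the level of a silencing factor was not tested.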

How the data were processed

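RNA had been extracted with Trizol from flash-frozen liver and made into Illumina TruSeq libraries, per the labels' protocols. The deposited values are whole-number read counts per Ensembl gene, not normalised, for 37991 genes in each of 6 libraries, 3 Het and 3 WT. The submitters' processing notes name mm9, DESeq, HTSeq 0.6.1 and TopHat2 2.0.11 without their roles. The counting strand and annotation release are not given in the sources used here. Antisense genes cannot therefore be told from their partners, and Dnmt3aos and Dnmt3bos together had 3 counts.

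Groups come from the genotype labels and replicate numbers from the titles. No library was a copy of another (chi-square per degree of freedom 10.2 to 79.9). Symbols were matched by Ensembl ID for 32919 genes. Counts were filtered with filterByExpr, keeping 12631 genes. TMM normalisation was followed by a fit in edgeR 4.0.16 in R 4.3.3 (robust quasi-likelihood, genotype as sole factor), with Benjamini-Hochberg adjustment and a threshold of 0.05. SE and 95% intervals come from each gene's F statistic. CPM are counts over normalised library size. Levels per kb divide CPM by the union of exons in GENCODE M21, another build than the files. Permutation tests used log2(CPM + 0.5). DESeq2 1.42.0, limma-voom (limma 3.58.1) and the other settings were alternatives. The steps were also run on simulated counts drawn from the fit itself, which cannot show whether its model suits these livers. Named were Ing5, every member, of each pathway list the 2 tested genes with the highest mean and the one with the smallest p, and from marker lists the most abundant genes. Kmt5c and Hba-a2 were added after their values were seen. The members, lists and tests were chosen with earlier results of these data known.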

Additional observations from a re-analysis of the deposited data

How the results depend on the processing

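No member passed the test in any of the settings tried. The members called were 0 with DESeq2 size factors, without a filter on low counts, with CPM above 1 in 3 libraries, with library sizes that leave out the 20 most abundant genes, without robust estimation, with the replicate block, with DESeq2, with limma-voom, at a threshold of 0.1, with the newer edgeR fit (added after the data were seen) and without each library in turn. No member changed sign in the 9 of these settings that keep all libraries and refit the values. Over all genes the count of 0 became 1 without a filter on low counts, 13 with DESeq2 and 0 to 17 when libraries were left out, and the cause was not tested. Whether replicate numbers pair the livers is not said. Deviations of same-numbered livers from their group means correlated at -0.025, -0.078 and 0.22, and those of differently numbered livers at -0.22 to 0.25. With means of only 3 livers these values cannot decide it. With the replicate block the log2 fold change of Ing5 was -0.046, the median over the members -0.017 and the count of genes called 0. Without single libraries the log2 fold change of Ing5 ran from -0.12 to 0.0077 and the median over the members from -0.047 to 0.027. In the same fits 20 members changed sign. Their log2 fold changes ran from -0.13 to 0.028 for Dnmt3a, -0.33 to 0.14 for Dnmt3b, -0.27 to 0.054 for Mbd1, -0.0067 to 0.061 for Setdb1, -0.16 to 0.085 for Suv39h1, -0.047 to 0.055 for Ehmt1, -0.040 to 0.023 for Ehmt2, -0.081 to 0.035 for Trim28, -0.13 to 0.22 for Atf7ip, -0.053 to 0.12 for Cbx1, -0.12 to 0.039 for Cbx5, -0.11 to 0.012 for Mphosph8, -0.013 to 0.073 for Pphln1, -0.026 to 0.051 for Atrx, -0.12 to 0.037 for Smarcc1, -0.12 to 0.049 for Pbrm1, -0.13 to 0.092 for Smchd1, -0.32 to 0.053 for Rlf, -0.025 to 0.092 for Eif3h and -0.19 to 0.018 for Foxo3. The smallest adjusted p of a tested member in any setting was 0.259 (edgeR quasi-likelihood, Benjamini-Hochberg), for Rlf without WT replicate 3. Depth limits Uhrf1 and Suv39h2 most.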
